A study of Mus musculus with 48 samples.

Results

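The enrichment of RNA on astrocyte ribosomes was compared between R6/2 mice and healthy mice. Each of 12 mice gave 2 libraries: an IP library, of RNA precipitated with hemagglutinin-tagged ribosomes, and an input library, of RNA from the cleared lysate of the same striatum. These 24 libraries were taken, by their labelled condition, from the 48 of the series. The 4 R6/2 mice carried the label control cargo, and the labels do not say what that cargo was. They were compared with 4 mice given vehicle by microinjection into the striatum and with 4 wild-type littermates from an experiment on SAPAP3 knockout mice. All 12 were adult mice labelled as strain C57, with no age given, and all had received an adeno-associated virus (RiboTag AAV) that expresses the tagged ribosomal protein Rpl22-HA in striatal astrocytes, 3 weeks before RNA extraction. A gene was kept when its IP-to-input ratio in R6/2 differed in the same direction from vehicle and from wild type, each at an adjusted p below 0.05.

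In a RiboTag preparation the precipitate is rich in RNA that astrocytes are translating, while the input holds RNA of all cells, so the IP-to-input ratio is high for genes that astrocytes express more than other cells do. A high ratio alone did not mark a gene as astrocytic in these libraries: the median log2 ratio of 12 striatal interneuron genes was 1.83 in vehicle, 1.39 in wild type and 1.75 in R6/2, and that of 8 ependymal genes 1.38, 2.08 and 1.76. The ratio moves when the IP level changes, when the input level changes, or when both change unequally. R6/2 mice carry a fragment of the human huntingtin gene with an expanded CAG repeat and are a model of Huntington's disease, in which medium spiny neurons of the striatum lose much of their characteristic gene expression. In these lysates fewer cells of a type and less RNA per cell cannot be told apart.

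The sample titles of each of these groups open with a different number, read here as a project. Genotype, treatment, littermate background and project thus cannot be told apart within a single comparison. The difference between both healthy groups, vehicle minus wild type, therefore served as a yardstick. Depth was 21901847 to 54724701 counts per library. The summed level of 33 astrocyte markers was above input in the IP of every mouse. It was 37300 to 42930 CPM (counts scaled to a common library total) in R6/2 IP libraries, 47980 to 59520 CPM in vehicle and 41630 to 57610 CPM in wild type. In input it was 6783 to 7621 CPM in R6/2, below all healthy mice, 7811 to 8539 CPM in vehicle and 9948 to 11980 CPM in wild type. Against both healthy groups 10 of the 33 were lower in IP libraries, and in input libraries 13 were lower and 1 higher. Against the striatal label, input libraries of wild-type replicates 2, 3 and 4 held 785 to 929 CPM of cortical excitatory neuron markers, against 163 CPM in wild-type replicate 1 and 86.9 to 142 CPM in the other mice. Wild-type replicate 4 was the only mouse with appreciable Xist reads, at 184 CPM in its input. The tagged gene Rpl22 was at 284 to 615 CPM in R6/2 IP libraries, 716 to 1710 CPM in wild type and 1280 to 1650 CPM in vehicle, and the lowest value was that of R6/2 replicate 2.

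Of 16318 genes tested, 4737 differed in ratio between R6/2 and vehicle (29.0%) and 3405 between R6/2 and wild type (20.9%). The yardstick was as wide: 3892 genes differed between vehicle and wild type (23.9%). In the same direction against both healthy groups, 1745 genes were kept. Of these, 1174 had a lower ratio in R6/2 (7.19% of genes tested) and 571 a higher ratio (3.50%). In 1609 kept genes the smaller of both shifts also exceeded the gene's own vehicle-to-wild-type gap. The median smaller shift of the kept genes was 0.38 on the log2 scale, beside a median gap of 0.13 in the same genes and 0.20 over all genes. The gap is the difference between both shifts, so keeping genes by both shifts favours small gaps. These medians and the count of 1609 are therefore no test against the yardstick. At the edge of the threshold, Dcaf7 and Ccdc88a were just inside, with larger adjusted p-values of 0.0499 for both, and Erc2 and Pqlc2 just outside, with 0.05002 and 0.05004. Another 84 genes passed against both healthy groups with opposite signs. Without pairing IP and input by mouse in the model, 841 genes were kept.

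**Figure D1:**
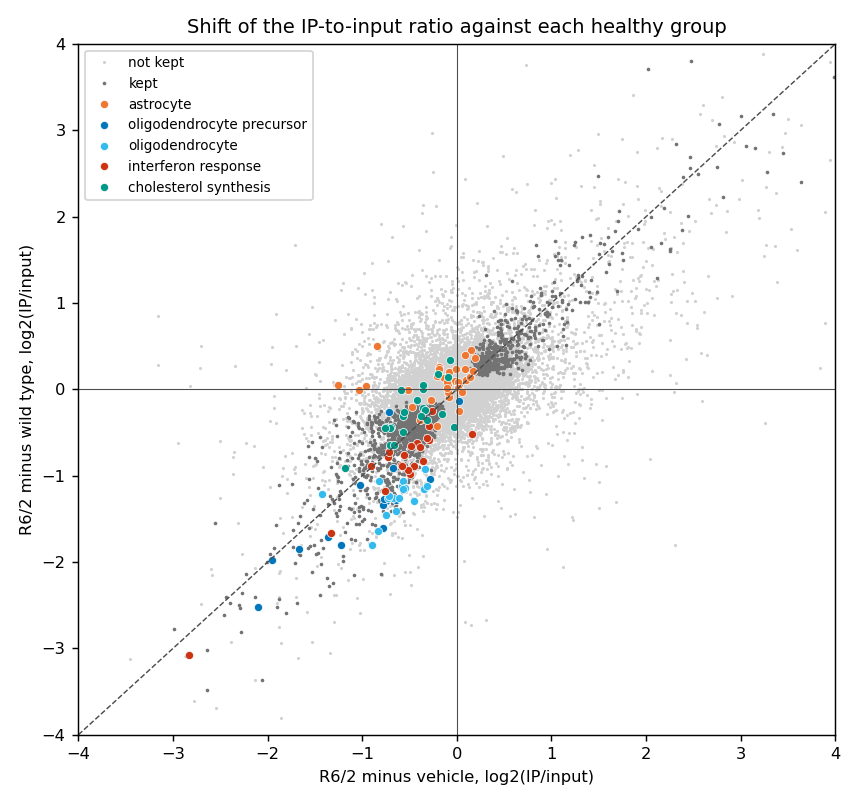
Difference in log2 IP-to-input ratio, R6/2 minus vehicle (x axis) and R6/2 minus wild type (y axis), for each gene tested; dark grey points are the 1745 kept genes, coloured points members of 5 gene lists, and the dashed line marks equal shifts. Both axes share the R6/2 mice, so the slope of the cloud is not evidence of a relation; 39 genes lie outside the limits of 4. Oligodendrocyte precursor and interferon genes lie in the lower left, and astrocyte markers around 0.

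The astrocyte markers had small median shifts as a list, -0.09 against vehicle and 0.08 against wild type. Of the 33, 8 had a lower ratio than in vehicle and none a higher one, while 6 were higher and 3 lower than in wild type. Of all 16318 genes, 3073 were lower and 1664 higher than in vehicle, and 1483 were higher and 1922 lower than in wild type. Between the healthy groups 13 of the 33 were higher in vehicle and 1 lower, beside 2462 and 1430 of all genes. The median log2 ratio of the 33 markers was 2.49 in vehicle, 2.21 in wild type and 2.36 in R6/2. Aldh1l1, the folate enzyme used as a general astrocyte marker, had log2 ratios of 2.79, 2.66, 2.69 and 2.79 in vehicle mice, 2.37, 2.56, 2.68 and 2.83 in wild type and 2.69, 2.63, 2.81 and 2.71 in R6/2. The R6/2 values lay within those of the healthy mice. The shift of Aldh1l1 was -0.02 ± 0.08 (SE, 4 mice a group) against vehicle and 0.10 ± 0.08 against wild type, with adjusted p-values of 0.871 and 0.447. Slc1a3, the glutamate transporter GLAST, also passed neither comparison.

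A single astrocyte marker of the 33 was kept. S100b, a calcium-binding protein also made by oligodendrocyte lineage cells, had log2 ratios of 1.66, 1.55, 1.66 and 1.59 in vehicle, 1.38, 1.68, 1.68 and 1.56 in wild type and 1.28, 1.05, 1.33 and 1.23 in R6/2. Each R6/2 mouse lay below each healthy mouse. The ratio of S100b fell by 0.39 ± 0.08 against vehicle and by 0.35 ± 0.08 against wild type, with adjusted p-values of 0.00118 and 0.004. Its input level was higher in R6/2, at 132 to 185 CPM against 92.3 to 125 CPM in healthy mice, while its IP levels overlapped.

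Other well-known astrocyte genes show why both healthy groups were needed. Slc1a2 (the glutamate transporter GLT-1) had a log2 ratio of 3.20 to 3.55 in vehicle, 1.96 to 2.17 in wild type and 2.44 to 2.67 in R6/2. The R6/2 mice thus lay between both healthy groups without overlap, 0.84 ± 0.09 below vehicle and 0.51 ± 0.09 above wild type. Kcnj10, the inward rectifier potassium channel Kir4.1, had ratios of 2.85 to 3.17 in vehicle, 1.88 to 2.13 in wild type and 1.78 to 2.19 in R6/2. Its difference of -1.04 ± 0.09 from vehicle (adjusted p = 1.51e-06) therefore had no counterpart against wild type, where it was -0.01 ± 0.09 (adjusted p = 0.948). Its input level was 57.8 to 70.1 CPM in vehicle mice and 132 to 174 CPM in all others. Gfap, the intermediate filament of reactive astrocytes, differed from wild type by -0.42 ± 0.13 (adjusted p = 0.037) and from vehicle by -0.21 ± 0.13 (adjusted p = 0.261), and was not kept. The difference of Gfap from wild type was 0.07 when wild type was reduced to replicate 1.

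**Figure D2:**
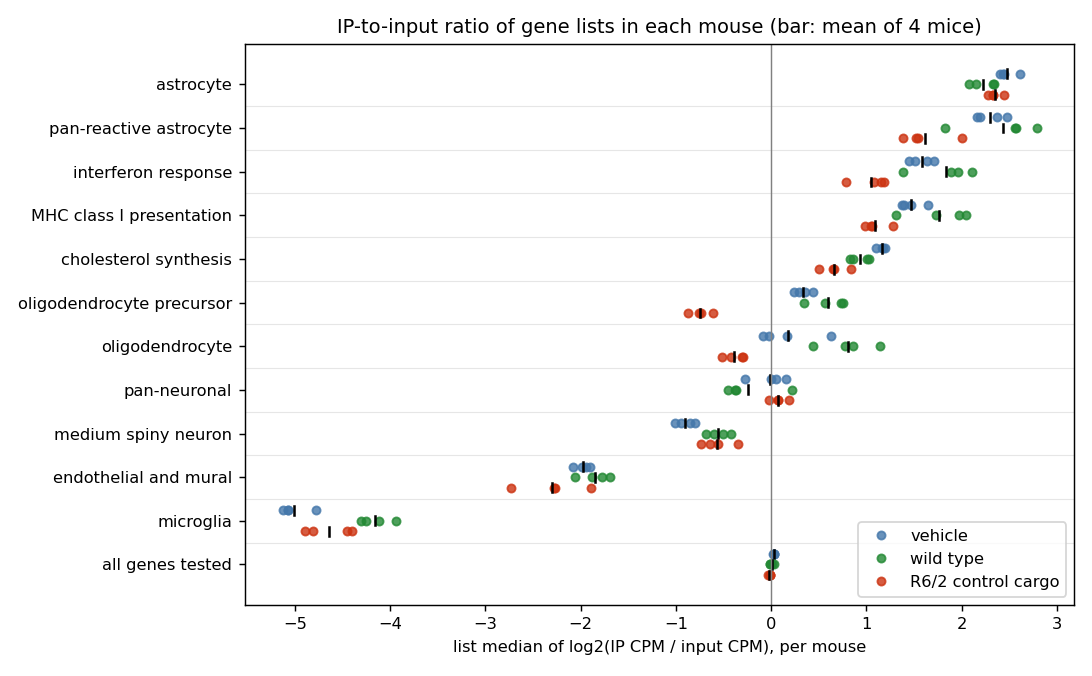
Median log2 IP-to-input ratio of each gene list (x axis) in each of the 12 mice, with short bars for the mean of 4 mice. The R6/2 mice overlap healthy mice for astrocyte markers and lie below all 8 for the oligodendrocyte precursor, oligodendrocyte, interferon response and MHC class I lists.

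Most genes of oligodendrocyte precursors had a lower ratio in R6/2. These precursors (OPCs) are the dividing glia that give rise to myelinating oligodendrocytes. Of 15 OPC genes, 13 had a lower ratio in R6/2 against both healthy groups and none a higher one. Of the 13, 11 exceeded their own yardstick, as did 1065 of all 1174 kept lower genes. The list median differed by -0.78 from vehicle and by -1.30 from wild type, beside -0.04 and -0.02 over all genes tested. The list's median log2 ratio was 0.24 to 0.44 in the vehicle mice, 0.34 to 0.75 in wild type and -0.87 to -0.61 in R6/2. The list median was thus below 0 in all 4 R6/2 mice and mildly above 0 in all 8 healthy mice, which does not hold for each gene alone. Cacng4 and Enpp6 were the members not kept.

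Pdgfra, the platelet-derived growth factor receptor that defines OPCs (chromosome 5, 75152292 to 75198215, plus strand), had the largest shift of the list. Its log2 ratio was 0.36, 0.44, 0.58 and 0.60 in vehicle mice, 0.34, 1.11, 1.14 and 1.04 in wild type and -1.39, -2.07, -1.62 and -1.38 in R6/2. The groups did not overlap, and the lowest healthy value was that of wild-type replicate 1. The ratio fell by 2.10 ± 0.16 against vehicle (adjusted p = 7.41e-07) and by 2.52 ± 0.16 against wild type (adjusted p = 3.12e-07). Input levels of Pdgfra were 60.3 to 78.5 CPM in all 12 mice and overlapped between groups. In input libraries alone Pdgfra was 0.17 higher in R6/2 than in wild type (adjusted p = 0.0237). IP levels were 100, 101, 112 and 111 CPM in vehicle, 86.1, 130, 162 and 142 CPM in wild type and 28.7, 17.6, 25.4 and 30.1 CPM in R6/2. The groups thus differed in the IP level of Pdgfra and overlapped in its input level.

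Cspg4, the NG2 proteoglycan on the OPC surface, had ratios of 0.94, 1.10, 0.99 and 0.95 in vehicle, 0.48, 1.15, 1.09 and 1.32 in wild type and -0.72, -1.23, -1.15 and -0.73 in R6/2. It fell by 1.95 ± 0.15 against vehicle and by 1.97 ± 0.15 against wild type, with a yardstick of only -0.02. Gpr17, a receptor of precursors about to differentiate, fell by 1.67 ± 0.14 and 1.85 ± 0.14. Its IP level was 14.0 to 24.8 CPM in R6/2 and 37.0 to 67.1 CPM in healthy mice. The remaining kept members were C1ql1, Neu4, Vcan, Matn4, Bcas1, Lhfpl3, Tnr and the lineage transcription factors Olig1, Olig2 and Sox10, and the smaller shifts over the 13 ranged from -2.10 to -0.26. All 13 had R6/2 values that did not overlap those of the healthy mice, as had 979 of all 1174 kept lower genes. Among the 15 genes, 11 were lower in R6/2 IP libraries against both healthy groups, while the input libraries held 4 higher and 2 lower. Over all genes tested in IP libraries alone, 15.9% were lower against both and 14.3% higher. The summed OPC input level was 760 to 809 CPM in R6/2 and 633 to 739 CPM in healthy mice.

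**Figure D3:**
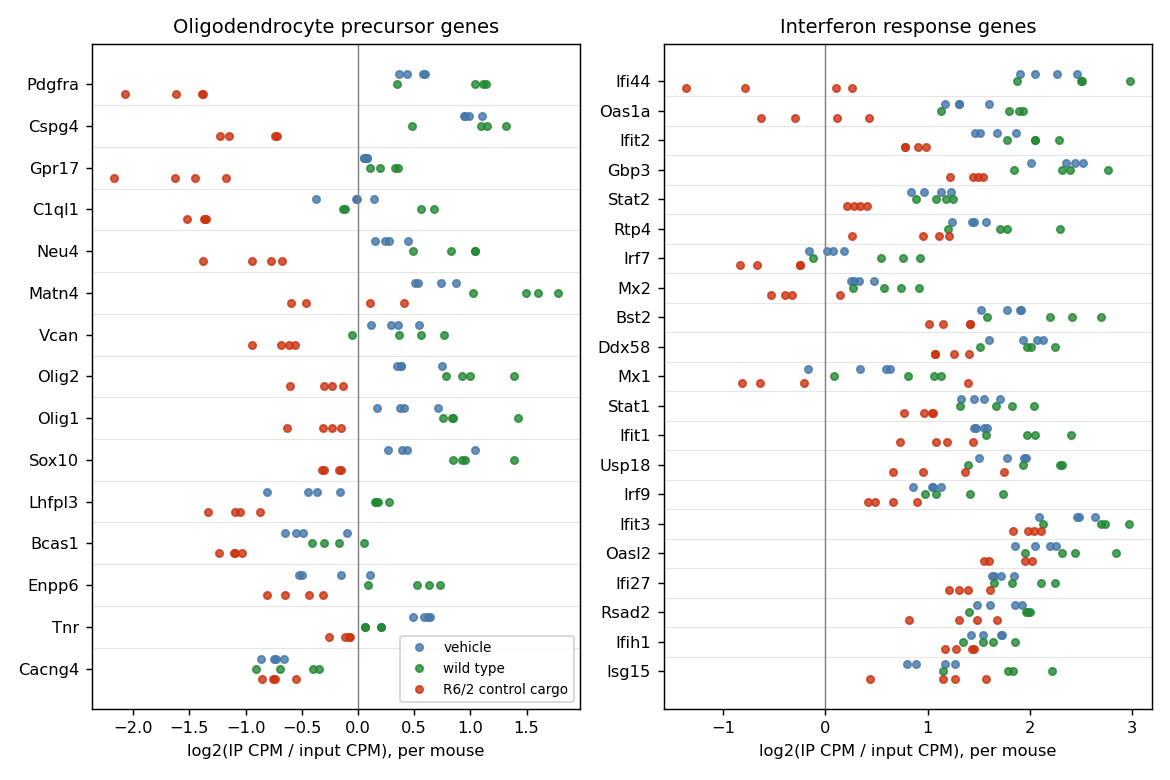
Log2 IP-to-input ratio (x axis) of each gene of the oligodendrocyte precursor list (left) and the interferon response list (right) in each mouse, ordered by the mean of both shifts. For Pdgfra and Cspg4 the 4 R6/2 mice lie below 0 and the 8 healthy mice above; the interferon genes shift less evenly, with Ifi44 farthest.

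Genes of mature oligodendrocytes moved the same way, against a wider yardstick. Of 18 markers, 13 were kept, all with a lower ratio. Their own vehicle-to-wild-type gap was exceeded by 9 of them, beside 1065 of all 1174 kept lower genes. The list median differed by -0.63 from vehicle and -1.22 from wild type, with a gap of -0.59 between the healthy groups. Mobp, a protein of compact myelin, had ratios of -0.71, -0.34, -0.91 and -1.02 in vehicle, -0.10, -0.42, -0.57 and 0.26 in wild type and -1.50, -1.50, -1.41 and -1.47 in R6/2. The R6/2 mice were the 4 lowest. Mobp fell by 0.73 ± 0.15 against vehicle and 1.26 ± 0.15 against wild type, with adjusted p-values of 0.00234 and 5.76e-05. Its level fell in both fractions, from 164 to 308 CPM in healthy IP libraries to 56.6 to 68.5 CPM in R6/2, and from 244 to 333 CPM to 151 to 194 CPM in input. Mbp, the myelin basic protein, shifted less, by -0.57 ± 0.16 and -1.12 ± 0.16. In IP libraries alone 16 of the 18 were lower in R6/2 against both groups, and in input libraries 9 were. Over all genes in input libraries alone, 18.4% were lower against both and 17.3% higher.

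Myrf, the transcription factor that starts the myelin programme, had the largest smaller shift among the 18, with ratios of 1.08 to 1.71 in vehicle, 0.80 to 1.57 in wild type and -0.32 to 0.25 in R6/2. Klk6, a secreted protease of mature oligodendrocytes that is not on the marker list, was among the lowest genes of the whole comparison. Its ratio was 1.44, 2.03, 1.88 and 2.24 in vehicle, 2.14, 2.74, 2.24 and 2.65 in wild type and -0.02, -0.43, -0.29 and -0.87 in R6/2. Klk6 fell by 2.28 ± 0.20 and 2.81 ± 0.20, and its IP level was 2.24 to 5.58 CPM in R6/2 against 42.5 to 206 CPM in healthy mice. Among endothelial and mural genes 4 of 19 were kept, all lower: Ly6c1, Vtn, Abcc9 and Cldn5. The wild-type and vehicle mice overlapped R6/2 for Abcc9 and Cldn5, and 2 of the 19 were kept without pairing by mouse. Cldn5 lost its call against vehicle under 15 alternative settings and turned to 0.0291 on log2 FPKM with a pseudocount of 1, and lost its call against wild type under 10. Against vehicle alone 5 of the 19 were lower and 3 higher.

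Of the 21 genes of the interferon response list, 10 were kept, all lower and all beyond their yardstick. Most kept lower genes were beyond theirs, 1065 of 1174. Ifi44 was the member of this list among the 15 lowest kept genes with non-overlapping groups, which also held Tgtp1, Slfn8, H2-T24, Tmem140, Phf11d, Gbp9, Gbp4, Tgtp2, Tnfsf10, Il18bp and Il12rb1. Tgtp1 and Tgtp2 are near-identical copies and Gbp4 and Gbp9 overlap on the same strand, so their reads cannot be cleanly divided. The median of the interferon list differed by -0.49 from vehicle and -0.79 from wild type. Without pairing by mouse 1 of the 21 was kept, and with wild type reduced to replicate 1, 4 were.

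The promoters of 3 kept genes are shown as examples whose upstream sequence holds the element known to bind interferon-activated factors. Whether the element has a part in the shifts was not tested. The motif searched was GAAANNGAAA, the core of the interferon-stimulated response element, on both strands of the 300 bases from 250 before to 50 after each start (RefSeq, GRCm38.p6). It was found in 10 of the 15 interferon genes with a promoter in that table (66.7%), in 3 of 9 genes of MHC class I presentation (33.3%), in 64 of 882 kept lower genes (7.26%) and in 1079 of 27025 genes in all (3.99%). Among kept list members it was in 4 of 7 interferon genes (57.1%) and 3 of 5 class I genes (60.0%). Of the tested genes, 447 of 11943 held it (3.74%). A match describes the letters and not a bound site. The stretches below run 5′ to 3′ on the gene's strand and end before the first transcribed base, with the motif in capitals; overlapping motifs share a run of capitals, and in Gbp3 the motif is read on the other strand. The stretch of Gbp3, a guanylate-binding GTPase, spans chr3:142559894-142560025, plus strand. That of Oas1a, an oligoadenylate synthetase, spans chr5:120907526-120907675, minus strand. That of B2m, the light chain of MHC class I, spans chr2:122147537-122147685, plus strand.
Gbp3: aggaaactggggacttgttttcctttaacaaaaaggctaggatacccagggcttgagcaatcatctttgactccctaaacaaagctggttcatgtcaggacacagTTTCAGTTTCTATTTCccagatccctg
Oas1a: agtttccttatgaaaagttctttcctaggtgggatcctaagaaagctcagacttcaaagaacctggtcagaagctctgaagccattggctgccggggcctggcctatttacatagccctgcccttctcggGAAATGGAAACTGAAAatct
B2m: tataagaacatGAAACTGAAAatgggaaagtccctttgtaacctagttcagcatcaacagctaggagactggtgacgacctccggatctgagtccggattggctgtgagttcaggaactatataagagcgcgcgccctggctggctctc

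Ifi44, an interferon-induced protein (chromosome 3, 151730922 to 151749960, minus strand), had ratios of 2.05, 1.90, 2.26 and 2.46 in vehicle, 1.87, 2.51, 2.98 and 2.50 in wild type and -1.36, 0.26, -0.79 and 0.11 in R6/2. The R6/2 mice varied widely and stayed below every healthy mouse. The fall was 2.83 ± 0.29 against vehicle and 3.08 ± 0.29 against wild type, with adjusted p-values of 5.85e-06 and 5.97e-06. Gbp3 was at 155 to 407 CPM in healthy IP libraries and at 15.3 to 28.6 CPM in R6/2, while its input level was 22.8 to 82.4 CPM in healthy mice and 5.40 to 10.5 CPM in R6/2. Both fractions were thus low in R6/2, the IP more so. Oas1a fell by 1.33 ± 0.27 against vehicle and 1.67 ± 0.27 against wild type. Over the list, 21 of 21 genes were lower in R6/2 IP libraries against both groups and 20 of 21 in input, so the ratio carries the part of a fall common to both fractions that was larger in the precipitate.

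The genes that present peptides on MHC class I showed the same arrangement. Of 11, 6 were kept, all lower: H2-T23, Tapbp, Erap1, B2m, Tap2 and H2-D1. H2-T23, a nonclassical class I heavy chain (chromosome 17, 36029773 to 36032855, minus strand), had IP levels of 136, 279, 140 and 173 CPM in vehicle, 492, 762, 190 and 703 CPM in wild type and 5.05, 9.65, 6.74 and 5.45 CPM in R6/2. Its input levels were 41.3, 94.5, 53.4 and 60.3 CPM in vehicle, 150, 173, 38.6 and 133 CPM in wild type and 5.52, 7.0, 7.60 and 5.91 CPM in R6/2. An enrichment of log2 1.39 to 2.40 in the 8 healthy mice stood beside -0.17 to 0.46 in R6/2. The ratio fell by 1.53 ± 0.16 and 2.11 ± 0.16, with adjusted p-values of 9.24e-06 and 7.57e-07. An antisense gene, A930015D03Rik, spans H2-T23 and H2-T24, and whether strand was used in counting is not given in the sources used here. B2m fell by 0.51 ± 0.11 and 0.67 ± 0.11, its IP level being 91.7 to 133 CPM in R6/2 and 937 to 2220 CPM in healthy mice. Without pairing by mouse none of the 11 was called against both groups, and with wild type reduced to replicate 1, 2 were. The summed level of 19 microglial markers moved with these genes in the input, at 606 to 686 CPM in R6/2 against 1061 to 2136 CPM in healthy mice, none of the 19 being at 0 in any mouse; their part in the result was not tested.

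Among the pan-reactive astrocyte genes, those raised by several kinds of injury, 3 of 13 were kept, all lower. S1pr3, a sphingosine-1-phosphate receptor, had ratios of 1.11 to 1.60 in vehicle, 1.82 to 2.23 in wild type and -0.57 to -0.08 in R6/2. Its input level overlapped that of vehicle mice, at 6.46 to 8.08 CPM against 5.16 to 6.79 CPM, and its IP level was 4.75 to 6.11 CPM against 11.6 to 16.8 CPM. Serpina3n, a secreted protease inhibitor, fell by 0.96 ± 0.16 and 1.17 ± 0.15, from 98.7 to 560 CPM in healthy IP libraries to 26.5 to 40.1 CPM. Osmr, the oncostatin M receptor, fell by 0.82 ± 0.14 and 1.08 ± 0.14. Of the 13 genes, 12 were lower in R6/2 IP libraries against both groups and 10 in input. The 4 kept members of the A1-type list were H2-T23, H2-D1, Serping1 and Iigp1, of which the first pair also belong to the class I list.

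Cholesterol synthesis, a pathway in which adult astrocytes supply neurons, was the largest metabolic group among the lower genes. Of 23 genes, 12 were kept, all with a lower ratio, 11 beyond their yardstick and 6 with groups that did not overlap. Among all 1174 kept lower genes, 1065 were beyond their yardstick and 979 had groups that did not overlap. The list median was 1.18 in vehicle, 0.91 in wild type and 0.68 in R6/2, a difference of -0.42 and -0.30. Tm7sf2, a sterol reductase, had ratios of 1.19, 1.06, 1.30 and 1.04 in vehicle, 0.70, 0.90, 0.88 and 1.03 in wild type and 0.05, -0.14, 0.06 and -0.09 in R6/2. The R6/2 mice were the 4 lowest, and the shift was -1.18 ± 0.11 against vehicle and -0.91 ± 0.11 against wild type. Its IP level fell to 7.93 to 9.93 CPM from 11.5 to 17.3 CPM, while its input level, 8.31 to 9.54 CPM, was above that of vehicle mice. Mvd and Mvk, 2 enzymes of the mevalonate pathway, shifted by -0.67 ± 0.09 and -0.71 ± 0.09 against vehicle and by -0.64 ± 0.09 for both against wild type. Insig1, which restrains the sterol-sensing machinery, Cyp51, Lss, Dhcr7, Sqle, Msmo1, Hsd17b7, Sc5d and Fdft1 completed the 12. The master regulator Srebf2 was not kept. In IP libraries alone 22 of the 23 were lower against both groups, and in input libraries 15. The count rested in part on R6/2 replicate 4, without which 7 were kept, and on the pairing of libraries by mouse, without which 4 were. The sterol regulatory element TCACNCCAC, sought on both strands, was present in 0 of the 10 kept list members with a promoter in the RefSeq table, in 1 of 16 members kept or not (6.25%), in 8 of 882 kept lower genes (0.907%), in 14 of 402 kept higher genes (3.48%) and in 388 of all 27025 (1.44%).

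**Figure D4:**
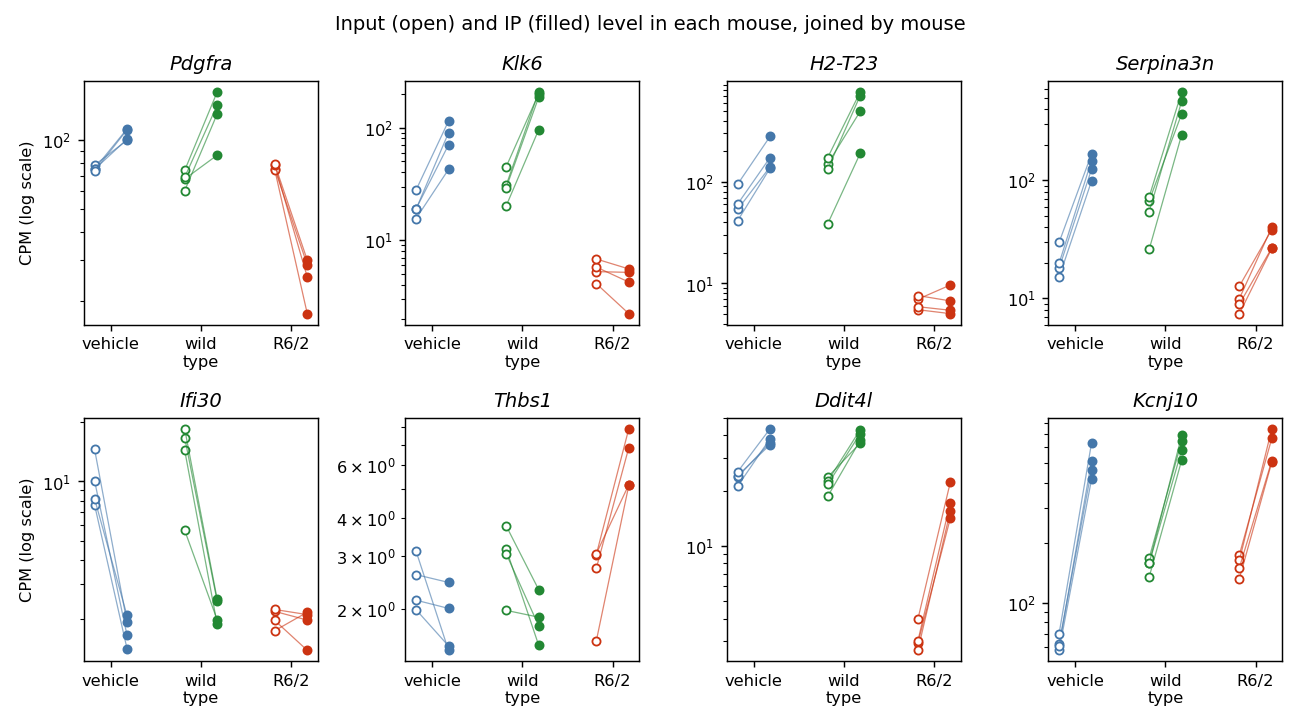
CPM on a log scale in the input library (open circles) and IP library (filled circles) of each mouse, joined by a line, for 8 genes. Pdgfra falls only in R6/2 IP libraries, H2-T23 falls in both fractions, Ifi30 and Ddit4l have low R6/2 input, Thbs1 rises in R6/2 IP, and Kcnj10 differs in the vehicle input.

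Kept ratios moved through the IP level, the input level or neither alone. A fraction was counted for a kept gene when its level was called against both groups in the direction that moves the ratio that way. Of the 1174 lower genes, 452 counted for a lower IP, 438 for a higher input, 8 for both and 276 for neither. Of the 571 higher genes, 96 counted for a higher IP, 375 for a lower input, 4 for both and 96 for neither. A gene called the same way in both fractions is thus counted under a single one. All 10 kept interferon genes, for example, were lower in IP, and 9 of them were also lower in input. Whether the lower and higher genes differ in this was not tested.

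Ifi30, a lysosomal thiol reductase, was among the kept genes with the highest shifts. It had ratios of -2.38, -2.88, -1.94 and -2.57 in vehicle, -2.90, -2.72, -1.48 and -2.84 in wild type and -0.14, 0.30, -0.49 and -0.08 in R6/2. Each R6/2 mouse lay above each healthy mouse, by a shift of 2.39 ± 0.30 and 2.46 ± 0.29. Its IP level was 1.39 to 2.17 CPM in R6/2 and 1.42 to 2.53 CPM in healthy mice, while its input level was 1.75 to 2.24 CPM against 5.65 to 18.5 CPM. Ctsc, the protease cathepsin C, and Lcp1, an actin-bundling protein of leukocytes, shifted by 1.67 ± 0.19 and 1.27 ± 0.14 against vehicle and by 1.83 ± 0.19 and 1.26 ± 0.14 against wild type, again with lower input in R6/2. Of the 19 microglial markers 3 were kept, all higher, Aif1 and Cd68 among them, while against wild type alone 4 were higher and 11 lower. The list as a whole followed the yardstick, with a median 0.31 above vehicle, 0.60 below wild type and a gap of -1.0.

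Ddit4l and Thbs1 rose in ratio at different levels: Ddit4l was lower in both fractions and Thbs1 higher in the IP. Ddit4l, an inhibitor of mTOR signalling, had ratios of 0.62, 0.56, 0.78 and 0.86 in vehicle, 0.61, 0.94, 0.92 and 1.01 in wild type and 2.25, 2.47, 2.50 and 2.49 in R6/2. This was a rise in ratio of 1.74 ± 0.11 and 1.58 ± 0.11, with adjusted p-values of 2.62e-07 and 4.96e-07. Its level was lower in both R6/2 fractions, at 14.1 to 22.2 CPM against 35.6 to 43.5 CPM in IP and at 2.68 to 3.96 CPM against 18.6 to 25.3 CPM in input. Thbs1, a thrombospondin that astrocytes secrete to promote synapse formation, had IP levels of 2.01, 1.46, 1.51 and 2.45 CPM in vehicle, 1.52, 1.76, 1.88 and 2.32 CPM in wild type and 6.84, 7.90, 5.13 and 5.16 CPM in R6/2, with overlapping input levels of 1.57 to 3.77 CPM in all 12 mice. The ratio of Thbs1 rose by 1.71 ± 0.26 and 1.95 ± 0.26, with adjusted p-values of 1.91e-04 and 1.21e-04. Abhd11os, a striatal transcript that overlaps the end of Abhd11 on the other strand, rose in ratio by 2.82 ± 0.35 and 2.23 ± 0.36 at input levels of 0.30 to 0.40 CPM in R6/2 against 6.17 to 13.7 CPM in healthy mice. Nrn1, a neuronal surface protein of cortical neurons, rose by 1.49 ± 0.38 and 2.47 ± 0.32, but its input level was 57.6 to 64.4 CPM in the 3 wild-type replicates with cortical markers and 2.15 to 4.75 CPM in the other 9 mice.

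Of 23 markers of medium spiny neurons, 15 were lower in R6/2 IP libraries against both healthy groups and 16 in input libraries. The ratio of 15 was higher than in vehicle and of none lower, with a list median of 0.37, and 2 were higher than in wild type. Between the healthy groups 17 of the 23 were lower in vehicle and none higher. Penk, the enkephalin precursor of indirect pathway medium spiny neurons, was at 286 to 311 CPM in R6/2 input against 678 to 1480 CPM in healthy mice, and at 186 to 270 CPM against 526 to 1020 CPM in IP. Its ratio was 0.39 ± 0.11 above vehicle (adjusted p = 0.0126) and 0.06 ± 0.11 below wild type (adjusted p = 0.722), within the gap of -0.46 between the healthy groups. Drd2, the dopamine D2 receptor of the same neurons, passed neither comparison. A single marker of the 23 was kept, the transcription factor Meis2, with a higher ratio, and its smaller shift of 0.30 did not exceed its gap of -0.32. Among 14 pan-neuronal genes Rbfox3 and Eno2 were kept, both higher, and among 79 cytosolic ribosomal proteins none was by edgeR (1 at an unadjusted p under 0.05 in both comparisons). For the ribosomal proteins 40 were higher than in vehicle and none than in wild type, beside 1664 and 1483 of all 16318 genes. Between the healthy groups 41 of the 79 were lower in vehicle and none higher, beside 1430 and 2462 of all genes.

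A second set of 24 libraries from the same 3 projects, sharing no library with the first, offered the same kind of comparison with added treatments. It consisted of R6/2 mice given hM4Di (an engineered Gi-coupled receptor) in astrocytes, mice given MPTP, which ablates dopaminergic neurons, and SAPAP3 knockout mice, with 4 replicates of each. The titles of MPTP replicate 2 name different mice for its IP and input libraries, so its ratio joins 2 animals. Since each project contributed to both sets, project and genotype cannot be told apart in this set either. Of 16254 genes tested there, 926 were lower in R6/2 against both other groups (5.70%) and 574 higher (3.53%). Of the first set's kept lower genes, 361 of 1174 were called the same way here (30.7%) and 6 the opposite way, and of the higher genes 187 of 570 (32.8%) and none. Without MPTP replicate 2 these were 341 lower and 173 higher genes.

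The precursor genes were again lower in R6/2, and no interferon gene passed against both groups. Of the 15 OPC genes 9 were lower against both groups in the second set, with list medians of -0.71 against MPTP and -1.20 against SAPAP3 knockout. Pdgfra had ratios of -2.44, -2.38, -2.10 and -2.07 in R6/2 hM4Di mice, -0.17 to 0.24 in MPTP and 0.79 to 1.38 in the knockout, and fell by 2.25 ± 0.13 and 3.37 ± 0.13. Among the 18 oligodendrocyte genes 3 were lower against both, among the 23 cholesterol genes 2 were lower and 5 higher, and among the 21 interferon and 11 class I genes none was called against both by edgeR. At an unadjusted p under 0.05 in both comparisons there was 1 interferon gene, lower, and 0 class I genes. H2-T23 was at 12.6, 79.0, 185 and 5.86 CPM in the IP libraries of the 4 hM4Di mice and had ratios of 0.55, 1.90, 2.00 and -0.19 there. Replicates 2 and 3, with the higher levels, lay above the MPTP ratios of 1.27 to 1.89, and replicates 1 and 4 below them. Ifi30 shifted by 2.64 ± 0.33 and 2.17 ± 0.33, Ddit4l by 1.79 ± 0.10 and 1.27 ± 0.10 and Thbs1 by 2.05 ± 0.47 and 2.88 ± 0.48, all called in the direction of the first set. Klk6 differed from MPTP mice by -0.21 ± 0.24 (adjusted p = 0.528). Whether the first and the second set differ in any of these shifts was not tested.

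**Figure D5:**
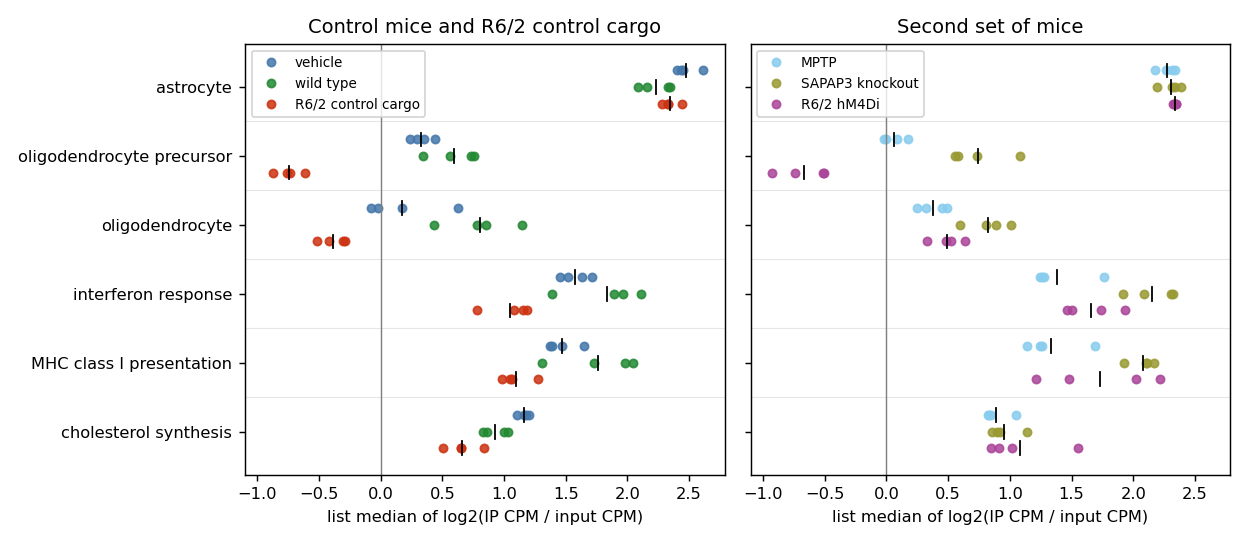
Median log2 IP-to-input ratio (x axis) of 6 gene lists in each replicate of the first set (left) and of the second set (right), with short bars for the mean of 4 replicates. The oligodendrocyte precursor list is below 0 in all 8 R6/2 mice of both sets and near or above 0 in the other 16 replicates; the interferon and cholesterol lists have their lowest group mean in R6/2 in the first set and in MPTP mice in the second.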

How the data were processed

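Paired IP and input libraries of 12 mice in 3 groups of 4 were analysed from the deposited count table of 24060 gene symbols. Per the submitters' processing notes the authors aligned reads with STAR to mm10 and counted them with HTSeq, with versions, annotation and strand setting not given in the sources used here. Per the labels, stranded libraries were made after ribosomal RNA depletion, and groups, replicates and mice were read from source names and titles. The authors' deposited FPKM values, which scale by gene length and library size, were used in an alternative only.

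Counts were fitted with edgeR 4.0.16 in R 4.3.3: filterByExpr with a minimum count of 10, TMM scaling, and a quasi-likelihood model with a term per mouse and an IP effect per group over all 24 libraries. Contrasts of IP effects were tested with Benjamini-Hochberg adjustment across 16318 genes and a threshold of 0.05. Standard errors are those the F statistic implies. Per-mouse ratios are differences of log2 CPM with a prior count of 2. The block is the mouse: the titles name the same mouse for its IP and input libraries, except that wild-type replicate 3 may join 2 mice and that, in the second set, MPTP replicate 2 pairs the input of 1 mouse with the IP of another. In the first set, the residuals of each IP library from its group mean were matched to the input libraries of the 4 mice of that group. In all 12 cases they correlated best with the input of the same mouse (r of 0.0851 to 0.488, lowest in vehicle). IP libraries alone and input libraries alone were fitted by group, and a second set of mice as the first. Depth was 21901847 to 54724701 counts per library, and the 36 pairs of same-group libraries differed by more than counting noise (chi-square per degree of freedom of 3.99 to 64.9).

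Of the 36 gene lists, those with kept genes that bear on cell types and pathways are described by counts and medians. The members and lists were chosen with earlier results of these data known. Named genes were the 15 highest and 15 lowest by smaller shift among kept genes beyond their yardstick whose average log2 CPM reached 1 and whose groups did not overlap, up to 4 kept genes per list, and a fixed set of markers. Other kept list members are named to complete a count. Symbols in 4 duplicated rows are not named. Some list members are not reported here. Coordinates are from GENCODE M21 (GRCm38). The model was tested on simulated counts. These held no project difference and no gap between the healthy groups, so that test does not bear on either. The labels say nothing more of how replicates were obtained, so p-values measure the spread between these mice. Alternatives used DESeq2 1.42.0, limma 3.58.1, other scalings, filters and thresholds, and each mouse left out; reducing wild type to replicate 1 was added after seeing the data.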

Additional observations from a re-analysis of the deposited data

Results flagged for a closer look

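In 1745 genes the IP-to-input effect differed between R6/2 and both healthy groups by the interaction contrasts of the report. Among 162 groups of 4 mice checked (42 genes and 12 lists in 3 groups each), 11 held a mouse far from the other 3, past the 95% critical value of Dixon's gap test, and chance alone flags about 1 in 20 such groups.

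Wild-type replicate 1 was the mouse in 5 of these: its log2 ratio was 0.34 for Pdgfra against 1.04 to 1.14 in the other 3, 1.13 for Oas1a against 1.80 to 1.93, 2.27 for Osmr against 2.79 to 2.84, 2.37 for Aqp4 against 2.72 to 2.77, and 0.22 for the pan-neuronal list median against -0.46 to -0.37. It was also the wild-type mouse without raised cortical markers. In the R6/2 group, H2-T23 stood at 0.46 in replicate 2 against -0.17 to -0.12, and Ddit4l at 2.25 in replicate 1 against 2.47 or more. In the vehicle group, S1pr3 was at 1.60 in replicate 4 against 1.11 to 1.19, Ctsc at -2.54 in replicate 2 against -1.98 to -1.90, and the microglia list median at -4.78 in replicate 4 against -5.13 to -5.07. Ifi30 was at -1.48 in wild-type replicate 3 against -2.90 to -2.72. For the kept genes among these that mouse still lay outside the range of the other genotype.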

How the results depend on the processing

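The kept genes, their subset beyond the yardstick and the 3 ratio contrasts stayed within 1.5 times of their counts under the other scalings, DESeq2, limma on counts, CPM or FPKM, the other filters, all 48 libraries in the fit, sex-linked genes left out and an adjusted p under 0.1. Without a replicate block for the mouse, 2870 genes were called against vehicle, 1770 against wild type and 12.9% of genes tested between the healthy groups (23.9% with it), and 841 were kept, 808 of them beyond the yardstick. With wild type reduced to replicate 1, the mouse without raised cortical markers (chosen after seeing the data), 998 were called against wild type, 3.72% of genes between the healthy groups, 794 kept and 677 beyond the yardstick. With a log2 difference of at least 1 required, 436 were called against vehicle, 475 against wild type and 2.06% of genes between the healthy groups, with 184 kept and 183 beyond the yardstick. Leaving out each mouse gave 3457 to 5263 genes against vehicle, 2285 to 4400 against wild type, 15.7% to 28.8% of genes between the healthy groups, 1151 to 1997 kept and 1068 to 1749 beyond the yardstick. Past 1.5 times the value with all mice were the healthy groups without vehicle replicate 4 (15.7%) or wild-type replicate 2 (15.8%), and the kept genes without R6/2 replicate 4 (1151 and 1068). The cause was not tested.

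The 13 oligodendrocyte and 13 precursor genes kept stayed within 1.5 times except at a log2 difference of at least 1, where 1 and 6 remained called. Of 216 values for kept named genes, 87 lost their call without the block and 42 with wild type reduced. On log2 FPKM with a pseudocount of 1, Cldn5 against vehicle turned to 0.0291, Fn1 against wild type to 0.0897 and Cx3cr1 against wild type to 0.13, and Gfap against wild type turned to 0.0703 with wild type reduced to replicate 1. Depth limits genes under 1 CPM, such as Abhd11os in R6/2 input, and 4 mice a group limit shifts smaller than their standard errors. Nothing in the labels separates project from genotype.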

Other observations

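Several smaller metabolic and signalling groups held kept genes with modest shifts and groups that did not overlap. Such separation was common among all kept genes, in 979 of 1174 lower and 461 of 571 higher ones. Of 24 genes of glycolysis, glycogen and lactate, 4 had a higher ratio in R6/2 against both healthy groups (3.50% of all genes did) and none a lower one. Pkm, the pyruvate kinase, was 0.33 ± 0.07 above vehicle and 0.22 ± 0.07 above wild type, and Pfkl, the liver-type phosphofructokinase, 0.18 ± 0.06 and 0.21 ± 0.06. Tpi1 and Ldhb were the others. These calls were sensitive to the processing: against wild type Pkm lost its call under 11 alternative settings, Tpi1 under 16, Pfkl under 7 and Ldhb under 4, and against vehicle Pfkl lost it under 8. Of 12 serine and glycine genes 3 were lower (7.19% of all genes were). Psat1, an enzyme of serine synthesis, was lower by 0.44 ± 0.07 against vehicle and Slc6a9, the glycine transporter GlyT1, by 0.38 ± 0.11. Gcsh was the other. Gcsh lost its call against wild type under 15 settings and Slc6a9 against vehicle under 7.

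Of 14 genes of calcium stores and pumps 2 were higher (3.50% of all genes were), both calcium ATPases. Atp2a2, the pump of the endoplasmic reticulum, was 0.30 ± 0.07 above vehicle and 0.44 ± 0.07 above wild type, and Atp2b1, of the plasma membrane, 0.39 ± 0.08 and 0.38 ± 0.08. Of 17 chaperones, the small heat shock proteins Hspb6 and Cryab were lower, and Hspa8 was higher, beside 7.19% and 3.50% of all genes. Of 15 Notch and Hedgehog genes, the ligand Jag1 was higher, by 0.73 ± 0.14 and 0.63 ± 0.14, and Hhip was lower, within its own yardstick. Whether any of these small counts exceeds the share over all genes was not tested.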
